A study of Mus musculus with 5 samples.

Results

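The genes described here encode heterogeneous nuclear ribonucleoproteins (hnRNP proteins), serine- and arginine-rich (SR) splicing factors, the DBHS proteins Sfpq, Nono and Pspc1, and the SR-like proteins Tra2a and Tra2b. They were chosen by symbol alone: every symbol that starts with Hnrnp or consists of Srsf and a number, plus these 5 names. No pseudogene symbol was taken. The rule gave 36 of the 46959 gene symbols in the count files: 20 hnRNP genes, 11 SR genes, 3 DBHS genes and 2 Tra2 genes.

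Total RNA was sequenced from D4M.3A, a mouse melanoma line of C57BL/6 origin with mutant Braf, at passages 7 to 12. The reference group, pBABE (n = 2 libraries), has the genotype control and is named for an empty retroviral vector. The other group, caMNK (n = 3), is the same line with constitutively active MNK1. MNK1 is a kinase downstream of ERK and p38, best known for phosphorylating the cap-binding factor eIF4E. Each group is 1 cell line. The sources used here do not give whether it is a clone or a pool of transduced cells, so a difference between the lines other than the kinase cannot be told apart from its effect. The libraries are described as biological replicates, and how their cultures were separated is not stated, so p-values measure the spread between these libraries, which may be technical.

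During transcription hnRNP proteins coat the nascent RNA and often block or mask splice sites and enhancers, while SR proteins bind exonic enhancers and recruit the spliceosome. Many exons are set by the balance between both families, and many of these proteins limit their own level by promoting an unproductive splice form of their own transcript that nonsense-mediated decay destroys. Sfpq, Nono and Pspc1 form dimers that assemble on the long non-coding RNA Neat1 into nuclear bodies called paraspeckles. Hnrnpa1 and Sfpq belong here for a further reason: their proteins have been reported as substrates of the MNK kinases. RNA counts do not measure that phosphorylation, the protein level or the splicing of any exon.

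The 250 bases upstream of 5 start sites are shown. None of these genes passed the threshold used below. Hnrnpul1 and Hnrnpa0 are the hnRNP genes that lay lowest in caMNK among members with a promoter entry. Hnrnpa1 and Sfpq are the reported substrates. Srsf6 is one of the SR genes whose caMNK libraries all lay above pBABE, with a smaller difference than Srsf5 and Srsf11. In each of the 5 windows the annotation places no exon. Sequences are RefSeq's for build GRCm38.p6, written 5′ to 3′ on the strand of the gene. Capitals mark a GC box (GGGCGG) or a CCAAT box (CCAAT) in either orientation.
Hnrnpul1, chr7:25754760-25755009, minus strand: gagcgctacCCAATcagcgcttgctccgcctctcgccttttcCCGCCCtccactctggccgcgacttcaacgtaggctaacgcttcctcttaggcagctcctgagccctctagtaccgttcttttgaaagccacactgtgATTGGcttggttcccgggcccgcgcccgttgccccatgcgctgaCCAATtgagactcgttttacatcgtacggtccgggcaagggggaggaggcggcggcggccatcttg
Hnrnpa0, chr13:58128557-58128806, minus strand: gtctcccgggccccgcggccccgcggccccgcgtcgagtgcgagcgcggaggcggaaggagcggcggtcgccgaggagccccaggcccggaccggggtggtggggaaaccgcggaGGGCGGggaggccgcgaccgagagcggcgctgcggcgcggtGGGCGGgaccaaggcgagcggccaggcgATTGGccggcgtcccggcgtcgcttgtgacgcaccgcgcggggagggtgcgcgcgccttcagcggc
Hnrnpa1, chr15:103240147-103240396, plus strand: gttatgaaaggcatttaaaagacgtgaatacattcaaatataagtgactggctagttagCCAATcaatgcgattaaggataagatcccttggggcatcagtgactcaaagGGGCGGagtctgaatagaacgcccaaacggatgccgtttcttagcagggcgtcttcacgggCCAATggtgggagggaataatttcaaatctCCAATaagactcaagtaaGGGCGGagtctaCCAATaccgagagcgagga
Sfpq, chr4:127021051-127021300, plus strand: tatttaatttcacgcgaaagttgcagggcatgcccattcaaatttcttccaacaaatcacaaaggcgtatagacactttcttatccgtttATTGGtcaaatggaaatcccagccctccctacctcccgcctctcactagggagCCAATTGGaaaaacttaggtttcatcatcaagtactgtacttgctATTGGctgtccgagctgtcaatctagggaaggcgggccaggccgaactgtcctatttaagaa
Srsf6, chr2:162931258-162931507, plus strand: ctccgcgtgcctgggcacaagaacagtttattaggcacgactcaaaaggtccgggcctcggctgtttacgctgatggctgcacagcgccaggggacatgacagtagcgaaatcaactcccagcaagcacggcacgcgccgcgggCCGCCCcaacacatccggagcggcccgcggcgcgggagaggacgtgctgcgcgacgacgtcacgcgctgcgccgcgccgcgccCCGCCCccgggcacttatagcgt

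Hnrnpa1 and Sfpq each held 4 CCAAT matches, a pair of which overlap in Sfpq, and Srsf6 held none. The GC box was present in all of these windows except that of Sfpq. A promoter entry was found for 34 of the 36 genes; Hnrnpul2 and Hnrnpll had none. Among the 34, a GC box was present in 26 and a CCAAT box in 19, against 33.0% and 34.5% of the 27025 mouse promoter windows of the same length. The ETS motif CCGGAAG was found in 6 (7.07% of all windows), TATAAA in 3 (13.0%), CACGTG in 2 (6.04%) and the cyclic AMP element TGACGTCA in 1, Tra2a (1.60%). Both strands were searched for every motif. A match is only a run of letters, not a site shown to be bound.

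Most of these genes are also annotated with the unproductive transcript forms for which the families are known. GENCODE release M21 lists a nonsense-mediated decay transcript for 22 of the 36 genes, against 24.6% of the 16861 protein-coding genes with counts. The share was 9 of 11 among SR genes, 10 of 20 among hnRNP genes, 2 of 2 Tra2 genes and 1 of 3 DBHS genes. A retained-intron transcript is listed for 26 of the 36, against 50.3% of the coding genes. Those coding genes were not matched to the 36 in abundance or in depth of annotation. The deposited length equals the whole annotated span, with introns, for 29 of the 36. How reads were assigned to genes is not stated. If they were counted over those spans, intronic reads are included. Each gene has 1 number, which does not part productive, retained-intron and decay forms.

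The libraries held 27827199 to 48794336 counts each, and 22686 to 24034 genes had at least 1 count. Mknk1, the gene of MNK1, on chromosome 4 from 115839198 to 115879250, checks the labels: it measured 15.2 and 16.7 CPM (counts scaled to library size, TMM-scaled) in pBABE and 167, 155 and 168 CPM in caMNK (10.2-fold, edgeR adjusted p = 4.81e-06). Of the pigment cell markers, Tyrp1 and Dct had no count in any library and Sox10 had 2 counts in a single library, while Mitf measured 4.35 to 6.48 CPM over all libraries. The summed levels of other cell types' markers were 3.72 to 5.19 CPM (keratinocyte) and 3.73 to 9.51 CPM (endothelial, where Cdh5 was lower in caMNK). They were 13.5 to 19.1 CPM (macrophage) and at most 0.0823 CPM (T cell, with Cd3e, Cd3d, Cd3g and Cd8a at 0). Krt10 made up most of the keratinocyte sum (3.63 to 4.95 CPM) and Csf1r most of the macrophage sum (10.7 to 13.7 CPM). The macrophage markers Adgre1 and Lyz2 had at most 2 and 1 counts in any library. RNA classes that vary with RNA quality and library preparation moved with the group. The summed mitochondrial mRNAs were 12290 to 13530 CPM in pBABE and 18770 to 21670 CPM in caMNK, with 6 of the 10 tested called higher. The 11 listed non-coding RNAs, Neat1 among them, summed to 527 to 545 CPM in pBABE and 812 to 1109 CPM in caMNK. Of the 9 tested, 5 were called higher (Malat1, Neat1, Snhg1, Snhg12 and Gas5) and 1 lower (Rpph1). The part of RNA quality and library preparation in the results below was not tested.

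One of these splicing genes, Hnrnpul2, fell in caMNK, and none rose. In bulk RNA, fewer cells with a transcript and less of it per cell cannot be told apart. Of the 36 genes, 35 were abundant enough to test; Srsf12 had 0 counts in 3 libraries, 1 in caMNK replicate 2 and 2 in caMNK replicate 3. The threshold was an adjusted p of 0.05 in edgeR's quasi-likelihood test over all 17026 genes tested, and 4.42% of those genes were called higher and 3.52% lower. Another background was the 5293 genes at least as abundant as the lowest tested member, Pspc1, called genes of like abundance below. That set has a floor only and is not matched to each member. In it 2.53% were called higher and 4.38% lower. One call in 35 is near that background. At an unadjusted p under 0.05, 2 of the 35 were higher (Srsf5 and Srsf11) and 4 lower (Hnrnpul2, Hnrnpul1, Hnrnpa0 and Hnrnpf). At that level 13.8% of all genes tested were higher and 12.1% lower, and 7.48% and 16.3% of those of like abundance, so neither count stands above its background. DESeq2 and limma-voom also called 0 of the members higher, with 5.09% and 3.99% of all genes higher; they called 3 and 2 members lower, with 4.94% and 3.4% of all genes lower.

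The intervals of the differences bound what these data leave room for. All 35 of the 95% intervals of the log2 fold change lay within 1.5-fold in either direction, from −0.51 at the lowest to 0.44 at the highest bound. Such narrow intervals were found for 56.7% of all genes tested and 87.5% of the genes of like abundance. Leaving out pBABE replicate 1 or 2 widened them, and 32 and 31 of the 35 then lay within 1.5-fold.

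**Figure D1:**
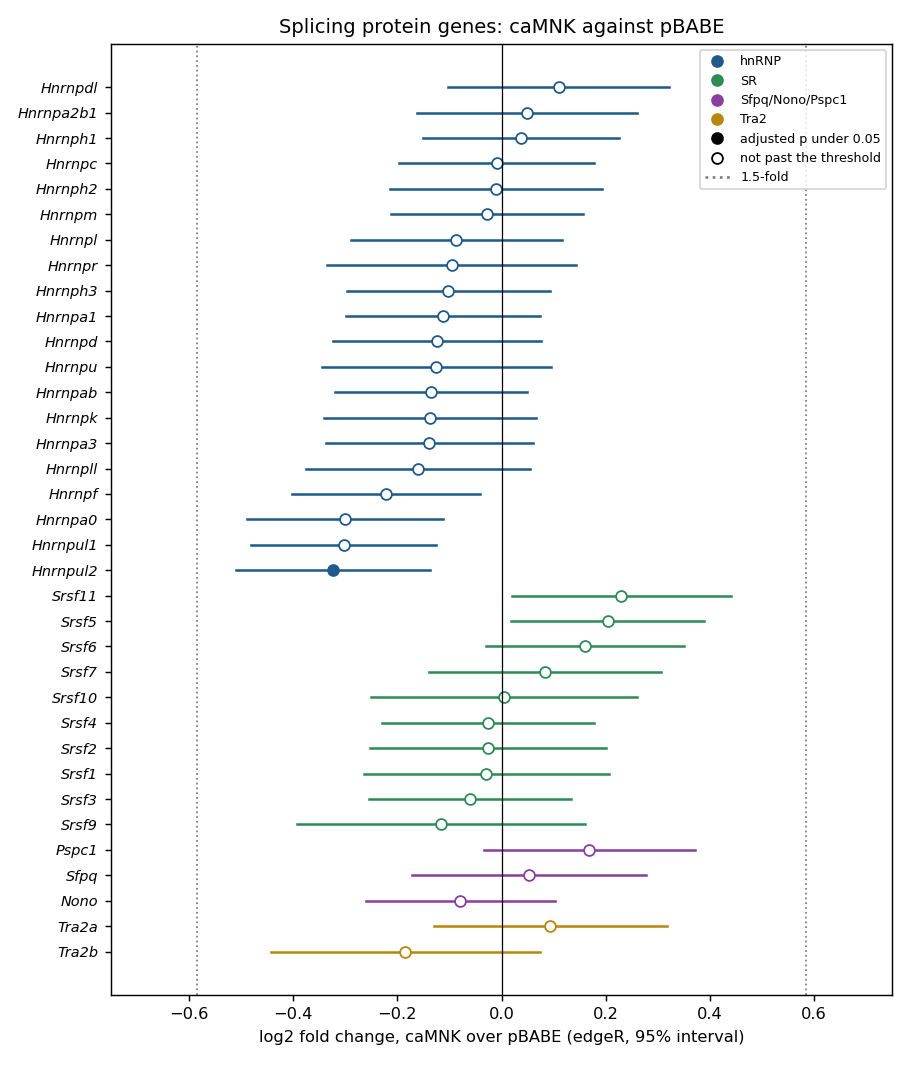
Log2 fold change of caMNK over pBABE for the 35 tested genes, from edgeR on 5 libraries; bars are 95% intervals and dotted lines mark 1.5-fold. Every interval lies between the dotted lines, and Hnrnpul2 alone has a filled point (adjusted p under 0.05).

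Summed over the family, hnRNP transcripts took 1.20% and 1.21% of all counts in the pBABE libraries and 1.17%, 1.20% and 1.14% in the caMNK libraries. SR transcripts took 0.261% and 0.260% in pBABE and 0.275%, 0.290% and 0.271% in caMNK. Each caMNK library lay below both pBABE libraries in the hnRNP share, and above both in the SR share. These shares are of total counts and carry no test.

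Gene by gene, 17 of the 20 hnRNP genes had a negative log2 fold change, with a median of −0.12. In 12 of the 20 every caMNK library lay below both pBABE libraries, and in none did every caMNK library lie above. Libraries were separated in this way for 22.6% of all genes tested downward and 22.3% upward; among genes of like abundance the shares were 30.5% and 14%. A negative log2 fold change was found for 8577 of the 17026 genes tested and for 3349 of the 5293 of like abundance. The median over all genes was −0.0021, and over the genes of like abundance −0.053. With total counts in place of TMM scaling, the all-gene median moved to 0.051, the hnRNP median was −0.064, and 14 of the 20 hnRNP genes were negative.

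The 3 hnRNP genes of lowest p were Hnrnpul2, Hnrnpul1 and Hnrnpa0. Hnrnpul2, on chromosome 19 from 8820010 to 8834143, encodes a nuclear protein related to the scaffold attachment factor Hnrnpu. Its level was 488 and 489 CPM in pBABE and 379, 409 and 382 CPM in caMNK. The groups did not overlap, and the pBABE pair was nearly equal. The mean fell from 488 ± 0.613 (SD, n = 2) to 390 ± 16.1 CPM (SD, n = 3), a 1.25-fold drop (log2 fold change −0.32, SE 0.082, 95% interval −0.51 to −0.14, edgeR adjusted p = 0.0476). The call rests close to the threshold: without pBABE replicate 1, pBABE replicate 2, caMNK replicate 1 or caMNK replicate 3 its adjusted p was 0.334, 0.312, 0.210 and 0.0624, and with total-count scaling 0.0703, while without caMNK replicate 2 it was 0.000998.

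Hnrnpul1, its close relative on chromosome 7 from 25721165 to 25754757, measured 280 and 280 CPM in pBABE and 227, 226 and 227 CPM in caMNK. All 3 caMNK libraries were nearly equal and lay below the pBABE pair, yet the gene missed the threshold (log2 fold change −0.30, SE 0.078, edgeR adjusted p = 0.0501). Hnrnpa0, an intronless gene on chromosome 13 from 58125879 to 58128556 whose protein binds AU-rich elements of cytokine mRNAs, measured 419 and 416 CPM in pBABE and 329, 331 and 357 CPM in caMNK. Its groups did not overlap either, and it too missed the threshold (log2 fold change −0.30, SE 0.083, edgeR adjusted p = 0.0606).

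Hnrnpa1, on chromosome 15 from 103240432 to 103246692, represses exons and carries mRNA out of the nucleus. Its level was 1097 and 1106 CPM in pBABE and 1036, 1048 and 974 CPM in caMNK. The caMNK libraries all lay below the pBABE pair, with a difference small beside its error (log2 fold change −0.11, SE 0.082, 95% interval −0.30 to 0.074, edgeR adjusted p = 0.432). A drop or rise beyond 1.5-fold lies outside that interval. Hnrnpa1 has 9 near-identical copies elsewhere in the genome. Those present in the count files together had 4.25% of its counts, and the others could not be counted.

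**Figure D2:**
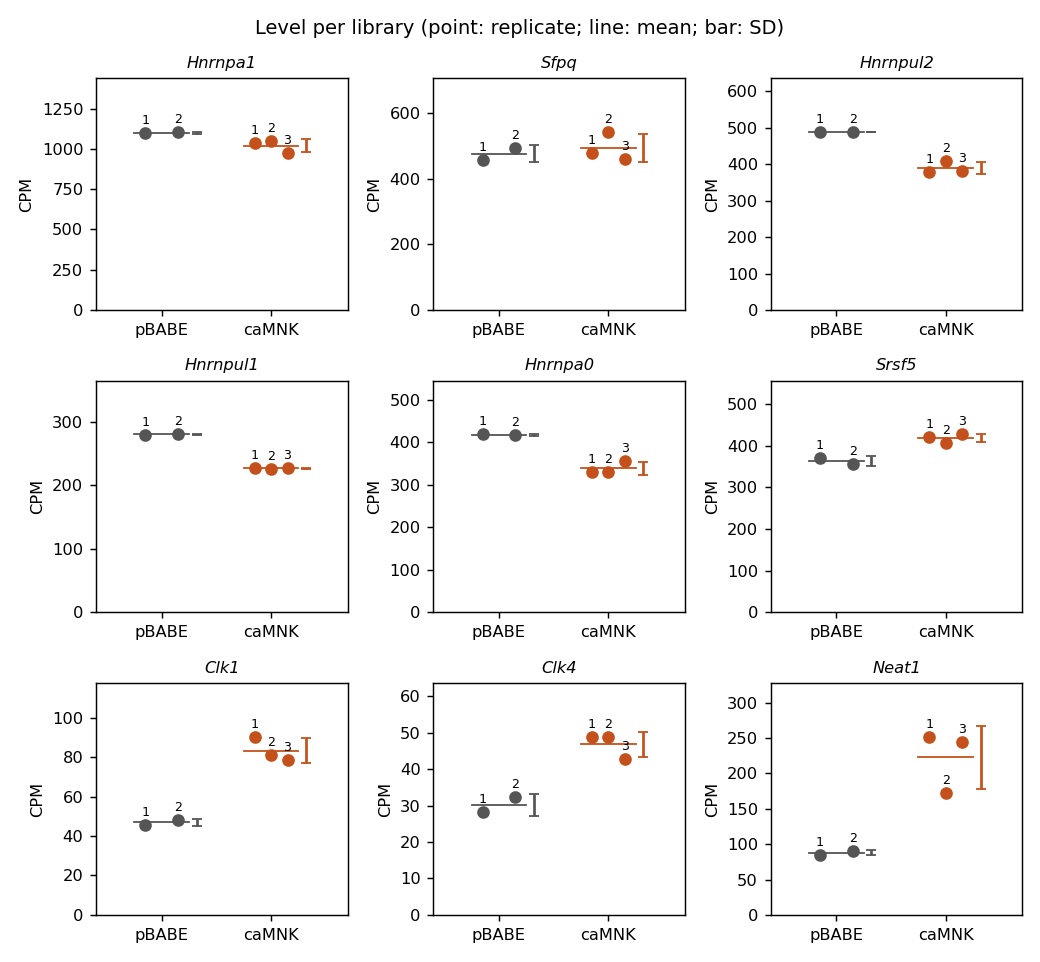
TMM-scaled CPM in each library (points, with replicate numbers), group mean (line) and SD (bar) for 6 members and for Clk1, Clk4 and Neat1; each axis starts at 0. Hnrnpul2 lies at 379 to 409 CPM in caMNK against 488 and 489 CPM in pBABE, and Neat1 at 172 to 252 CPM against 85.3 and 90.7 CPM.

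The remaining hnRNP genes lay between −0.22 (Hnrnpf) and 0.11 (Hnrnpdl) on the log2 scale, and none passed the threshold. Hnrnpf, which binds G-rich runs near splice sites, measured 374 and 370 CPM in pBABE and 325, 310 and 322 CPM in caMNK (edgeR adjusted p = 0.122). Of all members it had the largest share of counts in near-identical copies, 14.8% of its own. This covers those of its 8 copies that are present in the count files. Hnrnpll, Hnrnpab, Hnrnpa3, Hnrnpk, Hnrnpd, Hnrnph3 and Hnrnpl also had every caMNK library below both pBABE libraries, at log2 fold changes of −0.16 to −0.087. Hnrnpu, Hnrnpr, Hnrnpm, Hnrnph2 and Hnrnpc were negative with overlapping libraries. Hnrnpa2b1, a relative of Hnrnpa1 that also takes part in RNA sorting, was at 0.048, Hnrnph1 at 0.037 and Hnrnpdl at 0.11.

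The SR genes divided evenly, 5 positive and 5 negative, around a median log2 fold change of −0.011 (0.043, with 2 of 10 negative, under total-count scaling). None passed the threshold. In 3 of the 10 every caMNK library lay above both pBABE libraries, and in none below. Of all genes tested 22.3% were separated upward and 22.6% downward. Among genes of like abundance the shares were 14% and 30.5%. Srsf5, which binds exonic enhancers, measured 371 and 355 CPM in pBABE and 420, 407 and 427 CPM in caMNK. This was 1.15-fold higher with no overlap, at log2 0.20 (SE 0.081, 95% interval 0.018 to 0.39, edgeR adjusted p = 0.158). Srsf11, an SR-related protein first described with the U2 particle, measured 136 and 148 CPM in pBABE and 167, 177 and 156 CPM in caMNK. Its difference was of like size, log2 0.23 (SE 0.092, 95% interval 0.020 to 0.44, edgeR adjusted p = 0.160).

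Srsf6, another enhancer-binding factor, measured 298 and 303 CPM in pBABE and 328, 353 and 326 CPM in caMNK (log2 0.16, edgeR adjusted p = 0.270). The other SR genes had overlapping libraries. The best studied, Srsf1, was at −0.029, Srsf2 at −0.026 and Srsf3, the smallest SR protein, at −0.061; Srsf7 was at 0.083, Srsf9 at −0.12, Srsf4 at −0.026 and Srsf10, which represses splicing when it loses its phosphate groups, at 0.0048.

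The DBHS genes went in no common direction. Sfpq, on chromosome 4 from 127021324 to 127037013, measured 459 and 495 CPM in pBABE and 478, 544 and 462 CPM in caMNK. The groups overlapped, and the interval of the difference reached from −0.17 to 0.28 (log2 fold change 0.052, edgeR adjusted p = 0.787). Sfpq shares its locus with the transcript Gm12940, whose counts were 10.2% of its own. Nono, on the X chromosome, measured 532 and 551 CPM in pBABE and 521, 501 and 517 CPM in caMNK. All 3 caMNK libraries lay slightly below, with an interval of −0.26 to 0.10 (log2 fold change −0.079, edgeR adjusted p = 0.580). Pspc1, the least abundant tested member, measured 38.8 and 37.1 CPM in pBABE and 44.5, 42.9 and 40.7 CPM in caMNK, separated upward (log2 fold change 0.17, 95% interval −0.035 to 0.37, edgeR adjusted p = 0.276).

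Tra2a and Tra2b bind purine-rich enhancers beside SR proteins. Tra2a measured 156 and 156 CPM in pBABE and 162, 184 and 154 CPM in caMNK (log2 fold change 0.093, edgeR adjusted p = 0.595). Tra2b measured 185 and 181 CPM in pBABE and 161, 181 and 140 CPM in caMNK (log2 fold change −0.18, edgeR adjusted p = 0.347). In both the caMNK libraries reached or crossed the pBABE range, and replicate 2 was the highest of the caMNK libraries.

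**Figure D3:**
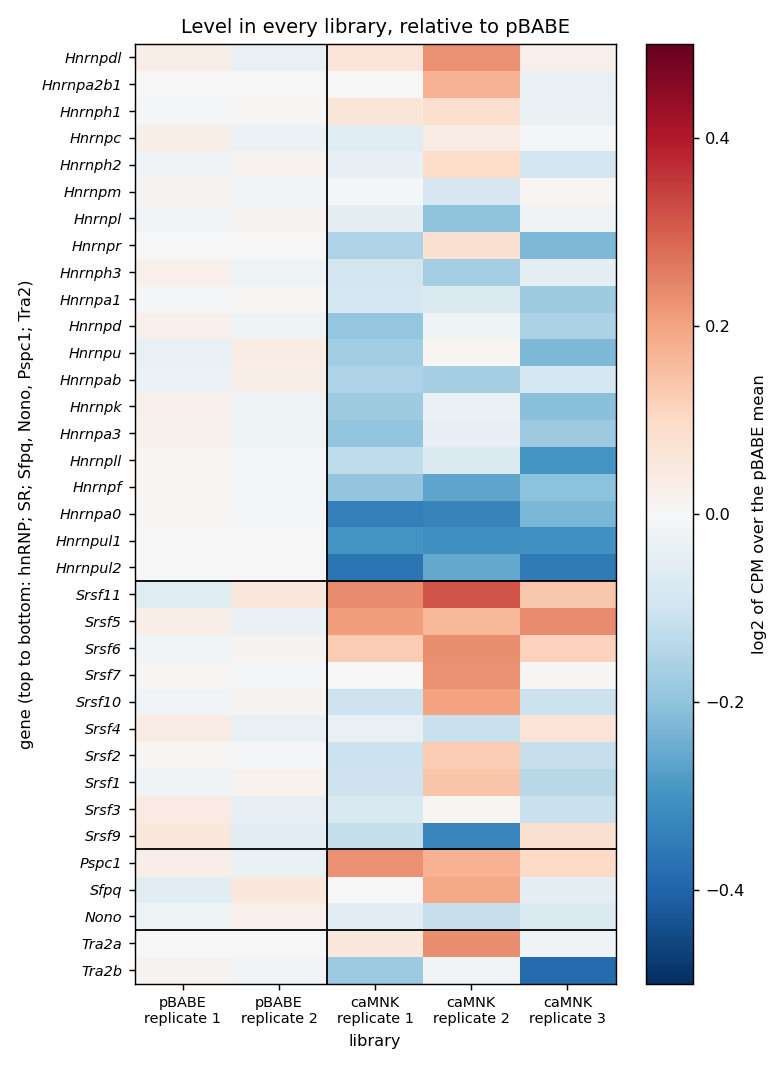
Log2 of CPM over the pBABE mean for the 35 tested genes (rows) in each of the 5 libraries (columns); blue is below and red above pBABE. The hnRNP block is mostly blue in caMNK, Hnrnpul2, Hnrnpul1 and Hnrnpa0 are blue in all 3 libraries, and many genes are redder in caMNK replicate 2 than in replicates 1 and 3.

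Levels between genes can be compared only per length. Dividing by the deposited length, which includes introns, Hnrnpa1 was the most abundant in pBABE at 244 CPM per kb, followed by Hnrnpa2b1 (175), Hnrnpa3 (168), Hnrnpa0 (156), Hnrnpab (135) and Srsf2 (107). Pspc1 was lowest at 0.680 CPM per kb. Hnrnpa0 has a single exon, whereas the length of the others includes introns, so the order does not give mRNA per transcript length.

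caMNK replicate 2 stood apart from replicates 1 and 3 in these genes as it did across the transcriptome. Among pairs of caMNK libraries the chi-square of the counts per degree of freedom was 8.34 for replicates 1 and 3, 20.5 for 1 and 2 and 45.0 for 2 and 3, against 5.94 for the pBABE pair. Replicate 2 was the highest caMNK library in 23 of the 35 genes (65.7%), against 40.1% of all genes tested and 49.4% of those of like abundance. Replicate 3 was the lowest in 19 of the 35, against 6357 of the 17026 genes tested and 2204 of the 5293 of like abundance.

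Without caMNK replicate 2, 1 of the 35 genes was called higher and 9 lower. The background rose as well: 13.9% of 16675 genes were then called higher and 15.7% lower. Srsf5 was the gene called higher (log2 fold change 0.22, edgeR adjusted p = 0.0231). The 9 lower were Hnrnpul2 (−0.36), Hnrnpul1 (−0.30), Hnrnpa0 (−0.29), Tra2b (−0.28), Hnrnpll (−0.21), Hnrnpf (−0.20), Hnrnpu (−0.20), Hnrnpk (−0.20) and Hnrnpr (−0.19), with adjusted p from 0.000998 to 0.0481. Sfpq turned from 0.052 to −0.023 and stayed far from the threshold, as did Hnrnpa1 at −0.13 (adjusted p = 0.844 and 0.175).

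**Figure D4:**
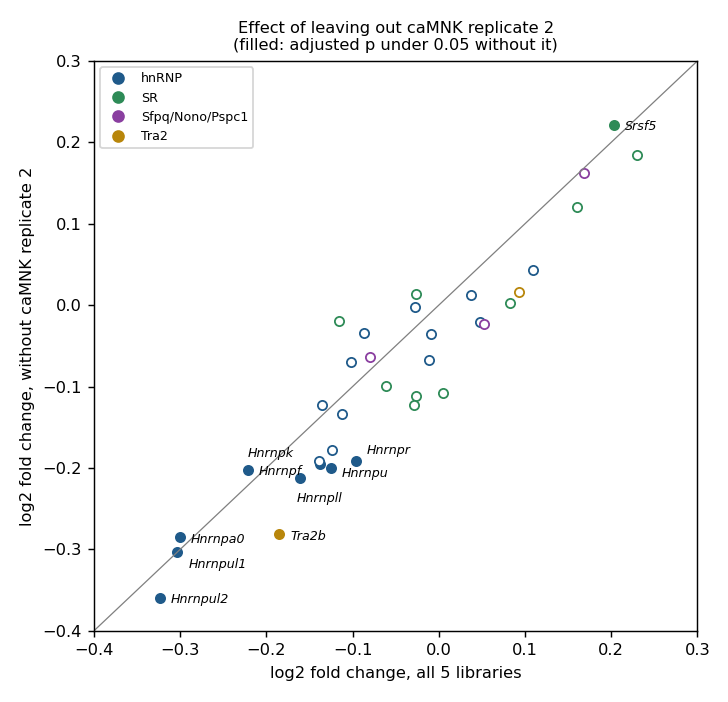
Log2 fold change of caMNK over pBABE with all 5 libraries (x axis) and without caMNK replicate 2 (y axis) for the 35 tested genes; the line marks equal values and filled points have an adjusted p under 0.05 without that library. The 9 genes called lower lie between −0.36 and −0.19 on the y axis, and Srsf5 is the 1 called higher.

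The partners of these proteins were read from 7 lists with 103 genes, of which 101 were tested. Among them 3 rose in caMNK, Clk1, Clk4 and Neat1, and none fell, where 4.42% of all genes were called higher and 3.52% lower. At an unadjusted p under 0.05, 11 were higher and 6 lower, against 13.8% and 12.1% of all genes. DESeq2 called 6 higher and 1 lower, against 5.09% and 4.94%. As a group the partners were thus called no more often than all genes in the edgeR comparison. Among the 5293 genes at least as abundant as Pspc1, 2.53% were called higher and 4.38% lower. At an unadjusted p under 0.05 in edgeR, 7.48% of those were higher and 16.3% lower. Against that background the upward counts of the partners were not low. Some partners, Clk4 among them, were less abundant than Pspc1, so that background is not matched to the partners. The median log2 fold change of the 101 was 0.0028.

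Clk1 and Clk4 encode kinases that phosphorylate SR proteins in the nucleus and release them from speckles. Clk1, on chromosome 1 from 58410189 to 58424066, measured 45.8 and 48.1 CPM in pBABE and 90.3, 80.8 and 78.5 CPM in caMNK. The groups lay far apart, and the rise was 1.77-fold (log2 fold change 0.83, SE 0.096, 95% interval 0.61 to 1.04, edgeR adjusted p = 0.00510). Clk4, on chromosome 11 from 51261730 to 51281766, measured 28.1 and 32.4 CPM in pBABE and 48.8, 48.9 and 42.9 CPM in caMNK. It rose 1.55-fold (log2 fold change 0.63, SE 0.107, edgeR adjusted p = 0.0133). Clk2 and Clk3 were at 0.26 and 0.16 and did not pass (edgeR adjusted p = 0.128 and 0.376). Clk1 transcripts that keep introns in the nucleus are well known, and these counts do not part them from mature mRNA.

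Neat1, the RNA scaffold of paraspeckles, on chromosome 19 from 5824708 to 5845478, measured 85.3 and 90.7 CPM in pBABE and 252, 172 and 244 CPM in caMNK. It rose 2.53-fold (log2 fold change 1.34, SE 0.163, edgeR adjusted p = 0.00537), with caMNK replicate 2 the lowest of the 3. None of its protein partners measured here passed the threshold: Sfpq, Nono and Pspc1 are given above, and the 11 other paraspeckle proteins on the list had no call. Neat1 moved beside the nuclear non-coding RNA Malat1, which measured 169 and 169 CPM in pBABE and 486, 259 and 432 CPM in caMNK. Whether RNA quality or library preparation had a part in this was not tested. All 3 calls were lost without pBABE replicate 1 (edgeR adjusted p = 0.112 for Clk1, 0.214 for Clk4 and 0.103 for Neat1) or pBABE replicate 2 (0.0659, 0.0903 and 0.0610), and that of Clk4 also without caMNK replicate 1 (0.0714).

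In the other lists no gene passed the threshold. The 12 hnRNP proteins with other symbols (such as Ptbp1 and Pcbp2) had a median log2 fold change of −0.085, the 16 SR-related proteins 0.039, the 21 U1 and U2 particle proteins −0.015, the 15 tested further splicing regulators 0.0065 and the 14 nonsense-mediated decay factors 0.020. The list of 11 tested kinases and importers of SR and hnRNP proteins had a median of 0.060, with 2 called, and the 12 other paraspeckle components 0.080, with 1 called. Closest to the threshold without passing it were the splicing regulator Celf2 at −0.56 (edgeR adjusted p = 0.0505), Rbm25, an SR-related partner of U1, at 0.36 (0.0540), the decay factor Upf3b at 0.34 (0.0572) and Pnn, a component of nuclear speckles, at 0.32 (0.0589).

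**Figure D5:**
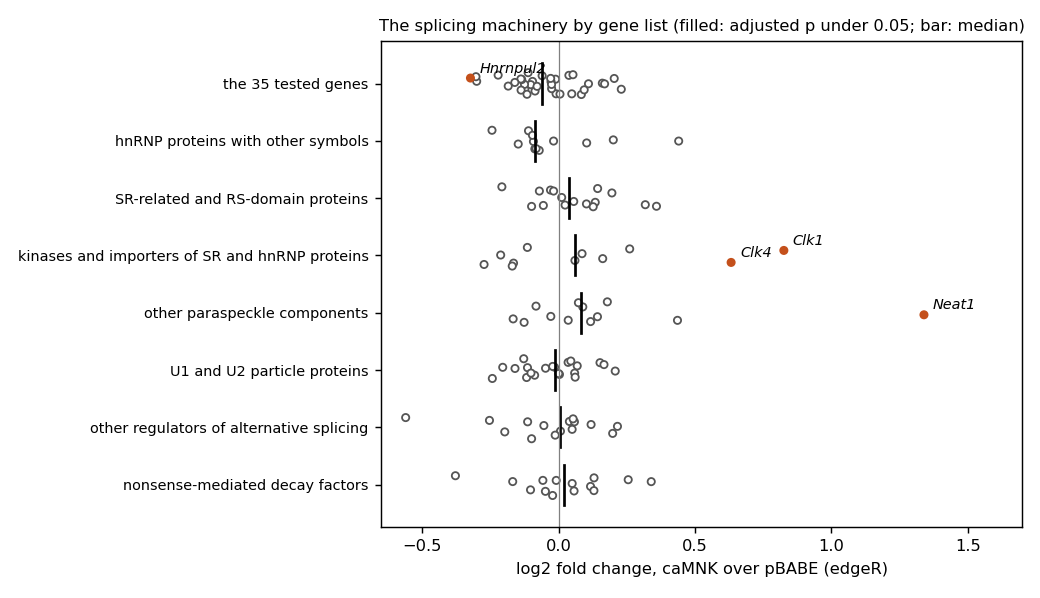
Log2 fold change of caMNK over pBABE for each tested gene (points) of the 35 members and the 7 lists of partner genes; black bars are medians and filled points have an adjusted p under 0.05. Most points lie near 0, while Clk4 (0.63), Clk1 (0.83) and Neat1 (1.34) stand to the right and Hnrnpul2 (−0.32) to the left.

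Reads shared between genes limit some values. Whether the counting used strand is not stated. In the annotation 6 members overlap a gene with counts of 10% or more of their own: Sfpq with Gm12940, Srsf4 with Gm12992, Hnrnpd with Gm17092, Hnrnph3 with Rufy2, Hnrnpab with Phykpl and Srsf2 with Mettl23 and Mfsd11. Near-identical copies, at 95% identity or more over at least 300 bases, were found for 12 members, and in 10 of them the copies held more than 1% of the member's counts. The authors' counting could split reads between such a gene and its copies, so the levels of Hnrnpf, Hnrnpc (copies at 5.15%), Hnrnpk (4.75%), Hnrnpa1 and Tra2b (3.09%) are uncertain. Adding the copies to the members was no check on Hnrnpul2 and Hnrnpul1, which have no such copies and kept their counts. That refit tested 16994 genes. In it Hnrnpul2 stayed called and Hnrnpul1 lay just under the threshold (edgeR adjusted p = 0.0497).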

How the data were processed

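The deposited tables hold raw read counts per gene symbol, 1 table per library, with a gene length. The submitters' processing notes name build mm10 and the tools featureCounts 1.5.3, SAMtools 0.1.19, STAR 2.5.3, DESeq2, Trimmomatic 0.32 and FastQC 0.11.2; per the labels' protocols, total RNA was made into stranded libraries. No source used here gives the annotation release or whether counting used strand. The gene lengths, which the authors deposited beside the counts, were compared with GENCODE M21.

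Counts were tested with edgeR 4.0.16 in R 4.3.3 (filterByExpr, TMM, robust quasi-likelihood F test, group as the only term, 5 libraries), adjusted by Benjamini-Hochberg over all genes tested. CPM values are TMM-scaled. Each interval is the log2 fold change plus or minus the t quantile times the standard error. The fit was tested on simulated data. In these every gene had the same dispersion and no library stood apart as caMNK replicate 2 does. That test therefore does not cover such a library. Alternatives used DESeq2 1.42.0, limma 3.58.1, other scalings and filters, a replicate block and each library left out. Copies were found with BLAST 2.17.0, an alternative chosen after seeing the data.

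The genes and lists were chosen with earlier results of these data known. Values per library are given for Hnrnpa1, Sfpq, every gene past the threshold and the 3 of lowest p in each family; from each partner list the genes past the threshold, at most 4, are given. Hnrnpf, Clk2, Clk3, Malat1 and the 4 partner genes that came closest to the threshold without passing it are named outside this rule, after their values were seen. Same-numbered libraries of the groups were not shown to share a culture, since their deviations correlated at −0.055 and −0.025.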

Additional observations from a re-analysis of the deposited data

How the results depend on the processing

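Calls depended on the processing, and so did the directions of genes close to 0. Of the 35 genes, 0 were called higher in every setting except without caMNK replicate 2, where 1 was (leave-one-out range 0 to 1). The count called lower, 1 as reported, was 3 with DESeq2 and without a filter, 2 with limma-voom, with the replicate block and with copies added, and 0 with total-count scaling, with at least 1 CPM in every library and without genes that share reads; leaving out each library in turn gave 0 to 9. Of the partner genes, 3 as reported, 6 were called higher with DESeq2 and total-count scaling, 7 without a filter and 8 with the replicate block (0 to 12 leaving out each library). None was called lower as reported, against 1 with DESeq2, with DESeq2 size factors and with the block, and 2 without a filter (0 to 19). The calls over all genes moved as well: 0.0631% were higher and 0.0688% lower without pBABE replicate 1, 13.9% and 15.7% without caMNK replicate 2, 8.67% and 7.23% with the block, and 5.69% and 4.75% without a filter, against 4.42% and 3.52% as reported. With the replicate block, caMNK replicate 3 is alone in its block, since pBABE has no replicate 3. The difference estimated with the block therefore rests on replicates 1 and 2 of both groups. Over all genes total-count scaling called 999 higher and 465 lower, against 753 and 599. The cause was not tested.

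Of the values of single genes under the alternatives, 480 kept direction and side of the threshold, 17 passed it only in the alternative, 14 missed it and 29 changed sign, all in 9 genes close to 0. With total-count scaling Hnrnph2 was 0.042, Srsf4 0.029, Hnrnpc 0.044, Srsf1 0.023, Srsf2 0.027 and Hnrnpm 0.027. With at least 1 CPM in every library Hnrnph2 was 0.0075 and Hnrnpc 0.0097. With the replicate block Hnrnph2 was 0.025, Srsf1 0.018 and Srsf2 0.011. Srsf10 was −0.0034 with DESeq2, −0.0021 with limma-voom and −0.0031 without a filter. Leaving out each library gave −0.068 to 0.029 for Hnrnph2, −0.023 to 0.10 for Sfpq, −0.072 to 0.014 for Srsf4, −0.11 to 0.061 for Srsf10, −0.021 to 0.090 for Hnrnpa2b1, −0.044 to 0.018 for Hnrnpc, −0.12 to 0.025 for Srsf1 and −0.11 to 0.018 for Srsf2. Leaving out a pBABE library leaves 1 in that group, assumed to vary like caMNK.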

Other observations

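Among the partner genes, the comparison without caMNK replicate 2 called 12 higher and 19 lower, with 13.9% and 15.7% of all genes called. Clk1, Clk4 and Neat1 are among the 12, so 9 of them and all 19 were calls that the 5-library comparison did not make. The 4 most negative of the 19 were as follows: Celf2, a splicing regulator, was at −0.73, Mbnl1, a muscleblind protein that sets developmental splicing, at −0.47, Qk, an RNA-binding protein of the STAR family, at −0.37, and Smg1, the kinase that phosphorylates Upf1, at −0.54. With all libraries they were at −0.56, −0.25, −0.20 and −0.38. In caMNK replicate 2 Mbnl1 measured 324 CPM, above both pBABE libraries (297 and 308 CPM), while caMNK replicates 1 and 3 measured 241 and 196 CPM. Qk had the same order, 290 CPM in caMNK replicate 2 against 274 and 271 CPM in pBABE and 217 and 206 CPM in the other two. The importers of SR and hnRNP proteins, Tnpo1 and Tnpo3, were at −0.34 and −0.30 without that library. Cirbp, a cold-inducible RNA-binding protein, was at 0.55. These genes were chosen after their values were seen.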
